A study of Zea mays with 28 samples.

Results

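A set of 66 maize genes had high transcript levels 2 h after mechanical wounding of a leaf and levels near control 24 h after wounding and at both time points with spider mites. The set was chosen on these measured values from the 39625 genes counted. Levels were expressed as CPM, the reads of a gene scaled by the total of its library, and D was the log2 of a treatment's mean CPM plus 1 minus the same quantity in control leaves. A gene was taken when D was at least 2 at 2 h of wounding and below 0.5 in each of the other 5 treatments. The comparisons with control therefore describe the genes. Where genes past a threshold are counted in them, the count stands beside that over all genes and supports nothing. Levels near control are meant on the scale of D, where the added 1 CPM compresses changes at low levels. Some genes of low control level were several-fold above control in another treatment, as given below.

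Transcripts were measured by RNA-seq in leaf 4 of 22-day-old plants of the maize inbred B73, and each replicate was an enclosed area of a single leaf. There were 28 leaves in 7 groups of 4. The groups were untreated enclosed leaves, leaves wounded with 60 grit sandpaper 2 or 24 h before collection, leaves exposed for these times to *O. pratensis* (BGM, the Banks grass mite, a specialist on grasses), and leaves exposed likewise to *T. urticae* (TSSM, a spider mite with a wide host range). Enclosures held 400 mites for 2 h and 200 for 24 h, so the number of mites and the time changed together. The paper describes the wounding as instantaneous, whereas released mites could take from minutes to several hours before they fed. Wounding and mites at 2 h thus differed in the onset and course of damage as well as in its kind. These differences cannot be told apart here. All leaves were collected together, and 1 group of 4 control leaves served all comparisons.

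When a leaf is wounded, calcium enters the cytoplasm and the hormones jasmonate and ethylene are made within the first hours. Transcription factors of the ERF, WRKY, bHLH and MYB families are among the first genes to respond, and many early transcripts are short lived and decline again before the slower defense proteins accumulate. Jasmonate also induces repressors of its own pathway, the JAZ proteins of the TIFY family. In plants, protein phosphatases 2C include repressors of abscisic acid signalling, a pathway that limits water loss. In bulk leaf tissue, a change in the share of cells of a type and a change in transcripts per cell cannot be told apart.

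Library totals were between 14721310 and 32891100 reads. Leaf genes (5 in all) served as a check of the tissue, and each was abundant in every leaf, from 1501 CPM for the lowest leaf of ssu1 (a small subunit of Rubisco) to 50659 CPM for the highest leaf of pdk1 (pyruvate phosphate dikinase). These genes were lower at 2 h of wounding, with D from -0.61 for pep1 (phosphoenolpyruvate carboxylase) to -0.30 for ssu1, and their part in the values below was not tested. Of 5 tested genes named as histone or cell cycle genes, 1 was called higher and 0 lower at 2 h of wounding, beside 17% and 8.47% of all tested genes.

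Genes that were high at 2 h of wounding and in no other treatment were a small part of the early wound response. In all, 1281 genes had D of at least 2 at this time point, and the 66 genes were 5.15% of these. The others reached 0.5 elsewhere, most often after 24 h with *T. urticae* (1166 genes, 91.0%) or *O. pratensis* (1118 genes, 87.3%). Fewer reached it at 2 h of *O. pratensis* (915 genes, 71.4%), at 2 h of *T. urticae* (669 genes, 52.2%) and at 24 h of wounding (643 genes, 50.2%). In 356 genes D was at or above 0.5 in all 5 other treatments, and in 52 genes in exactly 1 of them. Of those 52, 20 reached it in leaves held for 2 h with *O. pratensis*, 19 after 24 h of *T. urticae*, 7 after 24 h of wounding, 6 after 24 h of *O. pratensis* and 0 after 2 h of *T. urticae*.

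The median D of the 66 genes was 2.40 at 2 h of wounding, with a range of 2.00 to 5.12. It was 0.06 at 24 h of wounding and 0.13 at both time points of *O. pratensis*, and *T. urticae* gave 0.04 at 2 h and 0.22 at 24 h. Part of the medians at 24 h came from the scaling by library total. Over all 22339 tested genes, the median D was 0.12 at 24 h of wounding, 0.13 at 24 h of *O. pratensis* and 0.23 at 24 h of *T. urticae*, and with TMM scaling these 3 values were 0.00, -0.00 and 0.03. With TMM scaling the medians of the 66 genes were -0.02, 0.06 and 0.07 in the same treatments, so that the sign at 24 h of wounding turned. At 2 h of *O. pratensis* the median over all tested genes was -0.02, below that of the 66 genes. With TMM scaling it was -0.01, against 0.15 in the 66 genes. At 2 h of *T. urticae* it was -0.00, and with TMM scaling 0.00 against 0.04 in the 66 genes.

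**Figure D1:**
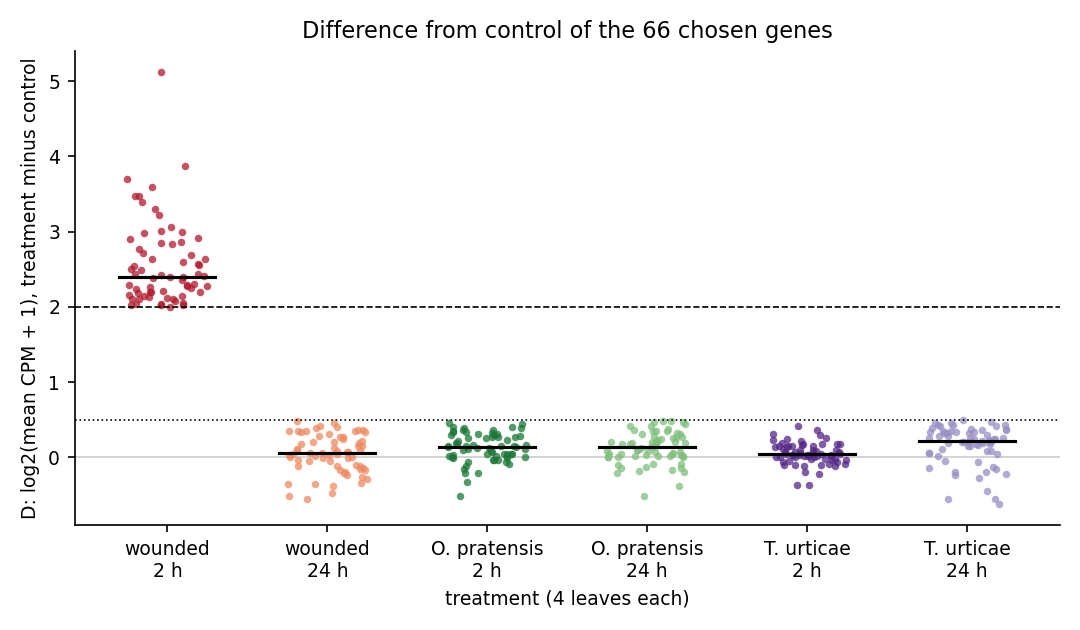
Each point is 1 of the 66 genes, plotted as D (log2 of mean CPM plus 1, treatment minus control) for the 6 treatments of 4 leaves each. Black bars are medians, and the dashed and dotted lines are the limits of 2 and 0.5 that chose the genes, so the gap between the first column (2.00 to 5.12) and the others (below 0.5) is set by the choice.

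The mean of log2(CPM + 1) over the 66 genes was 1.81 ± 0.05 in control leaves (SD, n = 4 leaves, as in each group) and 4.36 ± 0.24 at 2 h of wounding. It was 1.86 ± 0.07 at 24 h of wounding. With *O. pratensis* it was 1.94 ± 0.04 at both time points, and with *T. urticae* it was 1.86 ± 0.06 at 2 h and 1.96 ± 0.07 at 24 h.

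The highest D, 5.12, belonged to GRMZM2G169259 (LOC100191633), for which the name table holds a locus number only. Its 4 leaves at 2 h of wounding had 33.0, 47.9, 32.4 and 26.9 CPM, and its control leaves had 0, 0.0334, 0.0374 and 0.0811 CPM. At 24 h of wounding the leaves had 0.331, 0.167, 0.395 and 0.137 CPM, and no leaf with mites exceeded 0.611 CPM. The wounded leaves at 2 h thus stood far above every other leaf. Over the 4 control libraries the gene had 4 reads, and its ratio to control at 2 h of wounding was 944 (95% interval 368 to 3467, exact Clopper-Pearson, counting error only).

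GRMZM5G829897 (LOC100281842), with D of 3.87, had 9.24, 16.5, 14.9 and 14.6 CPM at 2 h of wounding. Its control libraries held 1 read together, which gave a ratio of 1487 (95% interval 266 to 58763). GRMZM2G036286 (LOC103627751), with D of 3.70, was already measurable in control leaves. Its control leaves had 3.73, 5.14, 5.69 and 5.27 CPM, its wounded leaves at 2 h had 90.7, 92.2, 64.5 and 58.4 CPM, and at 24 h of wounding the leaves had 7.88, 6.50, 6.99 and 5.32 CPM. All leaves with mites lay between 3.89 and 6.90 CPM and overlapped the control leaves.

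Among the 12 genes with the highest D that had a name in the table, the next were GRMZM5G831102, GRMZM5G882078 and GRMZM2G045431. GRMZM5G831102 (LOC100285937, D of 3.59) was at 0.644 ± 0.194 CPM in control and 18.8 ± 5.42 CPM at 2 h of wounding, and GRMZM5G882078 (LOC100383049, D of 3.48) was at 2.44 ± 0.434 and 37.4 ± 4.05 CPM. GRMZM2G045431, with D of 3.47, is described with the transcription factors. The other members of this group were GRMZM5G800598 (D of 3.40), GRMZM2G175343 (3.31), GRMZM2G327266 (3.23), GRMZM2G026147 (3.00), GRMZM2G127537 (2.99) and GRMZM2G134903 (2.91).

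In the 66 genes, 3 had no read in the 4 control libraries, and for these only lower bounds can be given, computed against 3 reads over these libraries together. At 2 h of wounding GRMZM2G175343 (LOC100280519) was at least 319-fold higher, GRMZM2G327266 (LOC100281892) at least 301-fold higher and GRMZM2G090652 at least 221-fold higher. GRMZM2G175343 was also listed at 0 reads in the 4 leaves at 24 h of wounding and had at most 3 reads in any mite group together. Its wounded leaves at 2 h had 9.88, 13.96, 6.90 and 4.80 CPM. A count of this size in control leaves would have been seen, whereas a level below 3 reads over 4 libraries would not.

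Genes whose family names refer to ethylene are named first, and a part of ethylene in their levels was not tested. These and the further genes named by family in the next paragraphs were picked after their values were seen, except bHLH150, PP2C16 and ugu1. ACS6 (GRMZM2G054361) is an ACC synthase, the enzyme family of the rate-limiting step of ethylene synthesis. Its leaves at 2 h of wounding had 4.40, 5.65, 2.85 and 2.29 CPM, against 0.0746, 0.100, 0 and 0.0405 CPM in control leaves. At 24 h of wounding the leaves had 0.166, 0.0670, 0.122 and 0.0686 CPM, which overlapped the control leaves. Its ratio to control at 2 h of wounding was 68.3 (95% interval 31.1 to 187, from 6 control reads). EREB36 (GRMZM2G069082) carries the name of the ethylene-responsive element binding transcription factors. It had 2.86, 6.75, 2.62 and 3.55 CPM at 2 h of wounding and 1 read in the control libraries together, a ratio of 424 (95% interval 75.7 to 16789). No other leaf exceeded 0.227 CPM for EREB36. At 2 h of *O. pratensis* it nevertheless had 12 reads, a ratio to control of 14.1 (95% interval 2.09 to 604). Its fitted log2 fold change in that treatment was 3.32 (SE 1.04, edgeR adjusted p = 0.038), short of a call. With *T. urticae* at 2 h it had 7 reads, a ratio of 8.18 (1.05 to 369). The intervals included 1 at 24 h of wounding (0.645 to 244) and of *O. pratensis* (0.752 to 285), and *T. urticae* at 24 h gave 2 reads.

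The other named transcription factors were bHLH150 and sbp27. bHLH150 (GRMZM2G045431), a basic helix-loop-helix factor, had 16.8, 23.5, 15.6 and 15.5 CPM at 2 h of wounding and 0.746, 0.634, 0.749 and 0.689 CPM in control leaves. At 24 h of wounding it was at 0.579 ± 0.266 CPM, a range that included the control leaves. sbp27 (GRMZM2G097275), a squamosa promoter binding factor of a family known for the timing of shoot development, had 27.4, 40.3, 33.4 and 28.3 CPM at 2 h of wounding. Its control leaves had 6.64, 5.04, 6.66 and 7.74 CPM, and its leaves at 24 h of wounding had 4.04, 5.29, 5.35 and 5.11 CPM. The latter leaves were below 3 of the control leaves and overlapped the lowest.

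PP2C16 (GRMZM2G082487), a protein phosphatase 2C, had 13.1, 22.9, 16.3 and 14.703 CPM at 2 h of wounding, against 4.85, 2.24, 2.21 and 3.28 CPM in control leaves. At 24 h of wounding it had 2.35, 1.81, 1.95 and 1.24 CPM, a D of -0.55. The control leaves and the leaves at 24 h overlapped. ZMK1 (GRMZM2G171279, also kch5), a potassium channel of the Shaker type, had 4.76, 8.66, 3.37 and 3.99 CPM at 2 h of wounding and 0.186, 0.167, 0.824 and 0.446 CPM in control leaves. Such channels carry potassium across the plasma membrane, and the same gene was at 0.820 ± 0.356 CPM at 24 h of *T. urticae*, where 2 of the 4 leaves lay above the control leaves.

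Metabolic genes with a name were CYP714B3 and TPS7. CYP714B3 (GRMZM2G106408) is a cytochrome P450 of a subfamily whose rice members hydroxylate gibberellins. It had 7.63, 9.23, 6.75 and 6.06 CPM at 2 h of wounding and was at 0.636 ± 0.206 CPM in control leaves, and no leaf of any other group exceeded 1.15 CPM. TPS7 (GRMZM2G019183) is paired in the study's ortholog list with an Arabidopsis gene of the trehalose phosphate synthase family. TPS7 had 28.3, 31.1, 42.6 and 33.8 CPM at 2 h of wounding and was at 5.01 ± 1.51 CPM in control and 4.99 ± 0.748 CPM at 24 h of wounding. It was 1 of the few genes whose highest wounded leaf was leaf 3. Names without a role that is given here were piip2 (GRMZM2G300135), at 6.15 ± 0.624 CPM in control and 47.9 ± 12.02 CPM at 2 h of wounding, and ugu1 (GRMZM2G134903), at 1.32 ± 0.344 and 16.4 ± 3.98 CPM.

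**Figure D2:**
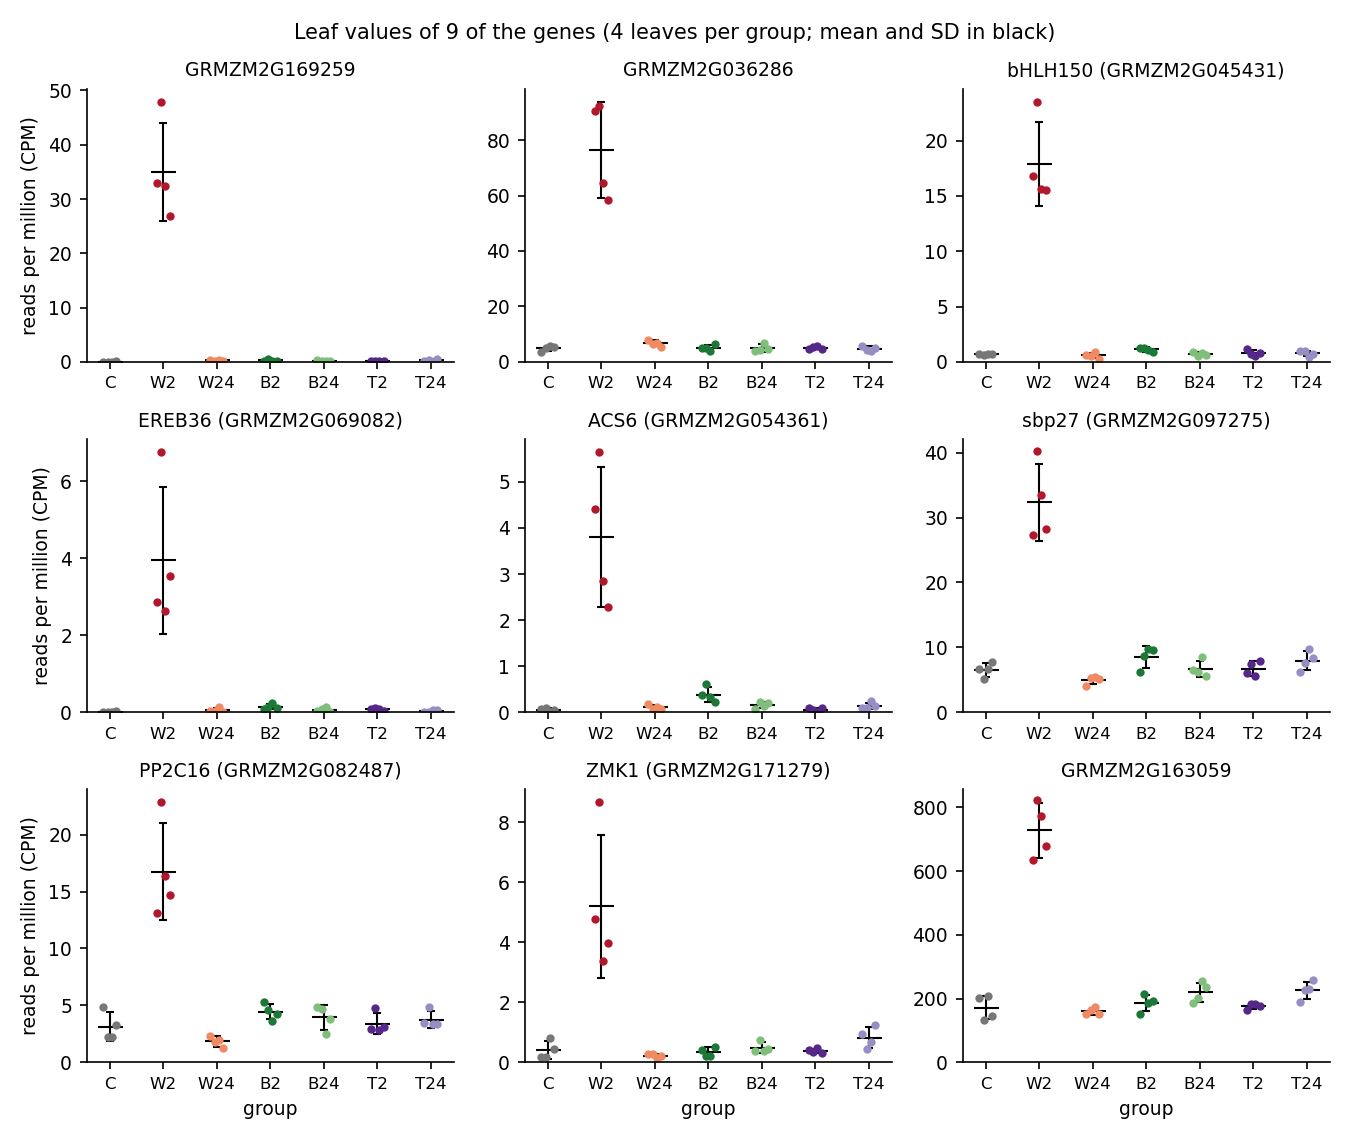
CPM in each of 4 leaves per group for 9 of the genes, with the group mean and SD in black; C is control, W2 and W24 are 2 and 24 h of wounding, B2 and B24 *O. pratensis*, and T2 and T24 *T. urticae*. In all 9 panels the 4 leaves of W2 lie above the other 24, by way of example with 2.29 to 5.65 CPM for ACS6 against at most 0.611 CPM elsewhere.

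The most abundant of the genes at 2 h of wounding, GRMZM2G163059 and GRMZM2G157621, had no name in the table. GRMZM2G163059 had 636, 822, 774 and 679 CPM at 2 h of wounding and 200, 134, 207 and 146 CPM in control leaves. GRMZM2G157621 had 508, 546, 515 and 520 CPM at 2 h of wounding and 120, 88.9, 121 and 99.7 CPM in control leaves. The latter varied little between its wounded leaves, with an SD of 16.5 around a mean of 522 CPM. At 24 h of wounding it was at 89.6 ± 4.22 CPM, and its leaves overlapped those of the control. The fitted log2 fold change there was -0.43 (SE 0.09, edgeR adjusted p = 0.0007), short of the fold change limit. Next in abundance was GRMZM5G889372 (LOC100383513), at 50.3 ± 7.51 CPM in control and 212 ± 38.2 CPM at 2 h of wounding. At 2 h of *O. pratensis* its leaves had 67.7, 73.5, 64.7 and 62.1 CPM, all above the highest control leaf (61.4 CPM). The fitted log2 fold change there was 0.43 (SE 0.11, edgeR adjusted p = 0.0068), also short of the fold change limit. GRMZM2G131969 (LOC100277506) followed, at 42.1 ± 8.19 and 188 ± 50.8 CPM. Among less abundant genes, GRMZM2G140328 was at 19.3 ± 3.20 CPM in control and 145 ± 12.3 CPM at 2 h of wounding, and GRMZM2G062045 was at 9.37 ± 0.321 and 82.7 ± 9.24 CPM.

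Control levels of the 66 genes spanned from 0 to 172 CPM. In 32 genes the mean control level was under 1 CPM, and these were at 3.80 to 35.0 CPM at 2 h of wounding, with a median of 6.29. In 22 genes it was 1 to 10 CPM and the level at 2 h of wounding was 7.63 to 82.7 CPM. In the remaining 12 genes the control level was at least 10 CPM and the wounded level 69.1 to 728 CPM. Of the 34 genes with at least 1 CPM in control, the ratio of means was between 4.15 and 15.4, with a median of 6.07.

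The wounded leaves at 2 h were separate from the other leaves in every one of the 66 genes, in that the 4 leaves lay above all 24 others. This held for 9.99% of all tested genes, and since the choice of the genes favoured it, nothing is read from the count. The lowest wounded leaf was at least 2 times the highest other leaf in 64 genes, and the median of this ratio was 4.11. The narrowest gap was in GRMZM2G090971 (LOC100193010). Its wounded leaves had 27.1, 31.9, 11.3 and 7.54 CPM, and a leaf with *O. pratensis* at 24 h had 7.50 CPM. All 66 genes passed the expression filter and were called higher at 2 h of wounding, where a call was an edgeR adjusted p of at most 0.01 with a change of at least 1 on the log2 scale. Over all tested genes 17% were called higher and 8.47% lower in this comparison, which the choice had used.

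The 4 wounded leaves at 2 h, numbered here by replicate, did not contribute equally. Leaf 2 was the highest of the 4 in 56 of the 66 genes (84.8%), leaf 3 in 9 genes, leaf 4 in 1 gene and leaf 1 in 0 genes. Among all 3793 genes called higher at 2 h of wounding, leaf 2 was the highest in 52.4%. The choice used the mean of these same leaves, which can favour genes with 1 high leaf. The genes called higher passed a different and lower limit, so the percentages are descriptions of unlike sets. The median deviation of leaf 2 from the mean of the 4 leaves was 0.35 on the log2 scale in the 66 genes and 0.13 in all genes called higher. With TMM scaling leaf 2 was the highest in 59 of the 66 genes and in 57.6% of all genes called higher. The library of leaf 2 was the smallest of the 4, at 26216004 reads against 26670519 to 27928077, and had the lowest TMM factor, 0.91 against 0.93 to 0.97. The part of these in the result was not tested. Without leaf 2 the same limits took 53 genes, of which 52 were among the 66.

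**Figure D3:**
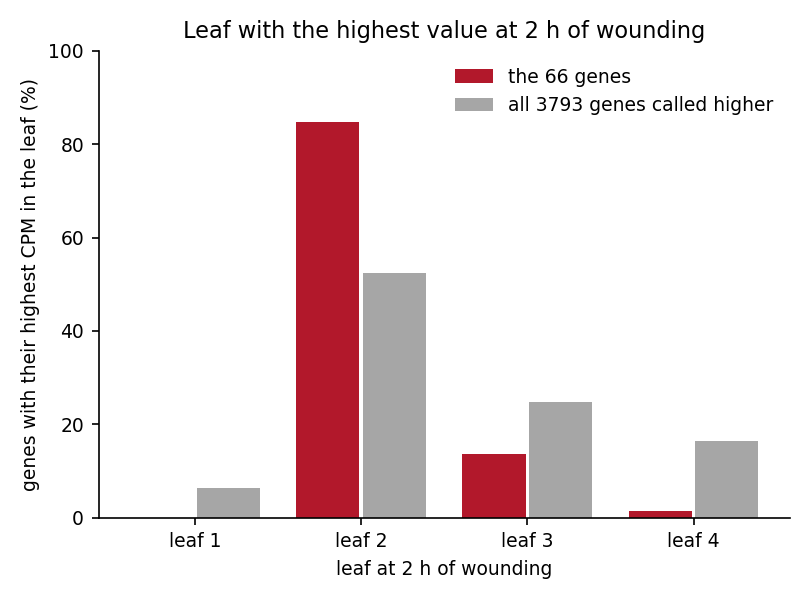
Bars give the percentage of genes whose highest CPM at 2 h of wounding was in each of the 4 leaves, for the 66 genes (red) and for all 3793 genes called higher (grey). Leaf 2 was the highest in 84.8% of the 66 genes and in 52.4% of all genes called higher. The 66 genes were chosen on the mean of these leaves, which bears on the difference.

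Although the limits on D kept the other treatments low, 11 of the 66 genes were called higher than control in at least 1 of them, and for these genes a rise at 2 h of wounding alone did not describe the data. The counts were 4 genes at 24 h of wounding, where 7.8% of all tested genes were called higher, 2 at 2 h of *O. pratensis* (5.25%), 4 at 24 h of *O. pratensis* (12.3%), 0 at 2 h of *T. urticae* (2.47%) and 7 at 24 h of *T. urticae* (15%). At an unadjusted edgeR p under 0.05, 15 of the 66 genes were higher and 12 lower at 24 h of wounding, where 43.8% of all genes passed in either direction. The counts were 24 and 1 at 2 h of *O. pratensis* (19.5%), 13 and 4 at 24 h of *O. pratensis* (50%), 6 and 0 at 2 h of *T. urticae* (12.9%) and 14 and 12 at 24 h of *T. urticae* (58.9%). DESeq2 called 1 gene higher at 2 h of *T. urticae*. These contrasts were bounded from above by the choice, so the counts are descriptions. The count of 11 was 12 by DESeq2 and 7 without control replicate 3.

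All 11 genes had a mean control level under 0.5 CPM, the highest being 0.422 CPM, and none exceeded a mean of 0.990 CPM in another treatment. Of the 34 genes with a control level of at least 1 CPM, 0 were called higher elsewhere. The choice all but fixes these results, so nothing is read from them. At control levels of 1 CPM or more, a D below 0.5 leaves almost no room for a log2 change of 1. The pseudocount of 1 CPM in D compresses changes at lower levels, whereas the fitted fold change does not. GRMZM2G327266, with no control read, was called in 3 treatments. It was at 8.37 ± 3.23 CPM at 2 h of wounding, at least 7.97-fold above control at 24 h of wounding (0.132, 0.0335, 0.426 and 0.274 CPM), at least 5.51-fold above it at 24 h of *O. pratensis* and at least 6.62-fold above it at 24 h of *T. urticae*. Its levels in these treatments were far below the 5.38 to 11.2 CPM of the wounded leaves at 2 h. At 2 h of mites it had 5 reads over the 4 leaves with *O. pratensis* and 1 read over those with *T. urticae*.

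GRMZM2G169259 was called at 24 h of wounding, with a ratio of 7.09 (95% interval 2.51 to 27.6), and at 24 h of *T. urticae*, with a ratio of 7.14 (2.44 to 28.4). GRMZM5G829897 was called at 24 h of wounding, with 31 reads against 1 control read, and GRMZM2G348855 in the same treatment, with a ratio of 5.76 (2.72 to 14). ACS6 was called at 2 h of *O. pratensis*, where its leaves had 0.375, 0.611, 0.318 and 0.210 CPM, all above the control leaves and a ratio of 6.27 (2.59 to 18.4). GRMZM2G448925 was also called at 2 h of *O. pratensis*, with 0.301 ± 0.235 CPM, and at 24 h of *T. urticae*, with 0.182 ± 0.0960 CPM. GRMZM2G112799 and GRMZM2G391696 were called at 24 h with both species, GRMZM2G090652 and GRMZM2G019799 at 24 h of *T. urticae*, and AF546187.1_FG012 at 24 h of *O. pratensis*. AF546187.1_FG012 had the highest level of these, at 0.422 ± 0.179 CPM in control and 0.990 ± 0.174 CPM at 24 h of *O. pratensis*.

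**Figure D4:**
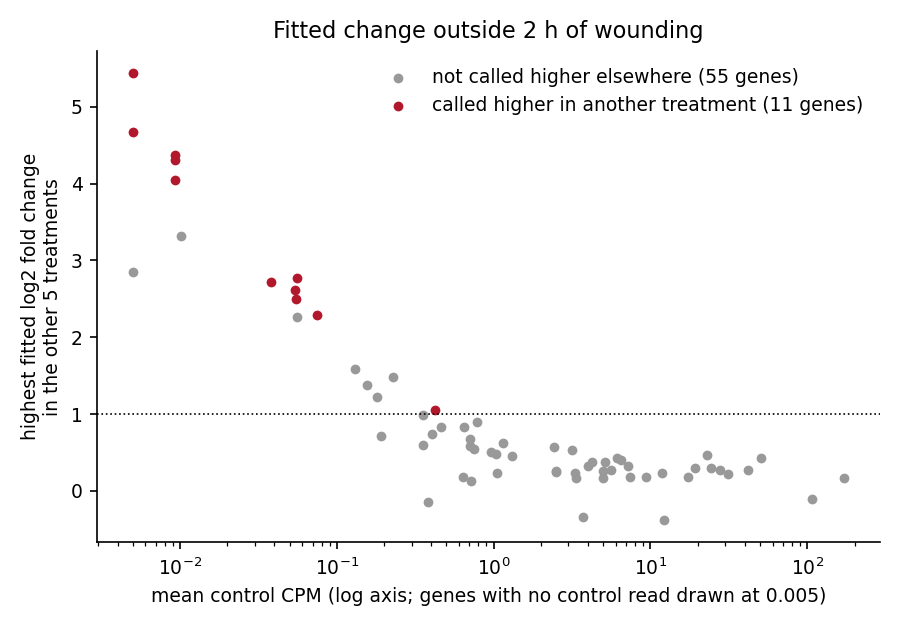
Mean control CPM (log axis) of the 66 genes against their highest fitted log2 fold change in the 5 treatments other than 2 h of wounding, with the 11 genes called higher in at least 1 of these in red and the other 55 in grey. The 11 lie at control levels of at most 0.422 CPM, and the dotted line marks the limit of 1 on the log2 scale that a call requires.

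The choice set no lower limit in the other treatments. The lowest D were -0.62 for GRMZM2G399136 (LOC100281085) at 24 h of *T. urticae*, -0.55 for GRMZM2G438178 and GRMZM2G301860 in the same treatment and -0.55 for PP2C16 at 24 h of wounding. GRMZM2G399136 was at 12.2 ± 5.26 CPM in control and 7.63 ± 2.77 CPM at 24 h of *T. urticae*, with overlapping leaves. GRMZM2G438178 had 11.4, 9.98, 16.1 and 10.1 CPM in control leaves and 7.09, 10.4, 6.50 and 7.18 CPM at 24 h of *T. urticae*, where 1 leaf lay within the control range. By edgeR 1 gene, GRMZM2G069146, was called lower in another treatment, and DESeq2 called it and 2 others, GRMZM2G150179 and GRMZM2G301860, at 24 h of *T. urticae*. GRMZM2G069146 had 1.30, 0.601, 0.824 and 1.42 CPM in control leaves and 0.489, 0.471, 0.427 and 0.584 CPM at 24 h of *T. urticae*, so that all 4 leaves were below the control leaves. In that treatment 4.09% of all tested genes were called lower. In the remaining treatments 0.81% (24 h of wounding), 0.0492% and 0.824% (2 and 24 h of *O. pratensis*) and 0.00895% (2 h of *T. urticae*) of all genes were called lower, and 0 of the 66 genes.

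The difference between the mite species was not itself part of the choice and was tested in the same edgeR model. The choice did cap the level with each species, which limits how far they can differ, so the counts of calls are no independent result about the 66 genes. At 2 h, 0 of the 66 genes were called between *O. pratensis* and *T. urticae*, against 0.68% of all tested genes. At an unadjusted edgeR p under 0.05, 4 genes were higher with *O. pratensis* and 0 lower, a threshold that 8.05% of all genes passed, and DESeq2 called 0. At 24 h, 0 of the 66 genes were called, against 0.9% of all genes. At an unadjusted p under 0.05, 6 were higher and 4 lower with *O. pratensis*, against 18.7% of all genes, and DESeq2 again called 0. The median log2 difference between the species was 0.14 at 2 h and 0.06 at 24 h in the 66 genes, and 0.00 and -0.01 over all genes.

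The smallest adjusted p at 2 h was that of ACS6. Its leaves with *O. pratensis* (0.210 to 0.611 CPM) all lay above its leaves with *T. urticae*, which had 0.0880, 0.0486, 0 and 0.0811 CPM. The difference was 2.64 on the log2 scale (SE 0.61, edgeR adjusted p = 0.017), higher with *O. pratensis* and short of the threshold of 0.01. It rested on 32 reads over the 4 leaves with *O. pratensis* and 5 reads over the 4 with *T. urticae*. With the replicate number as a block it was called, at 2.64 (SE 0.56, edgeR adjusted p = 0.00809). At 24 h the smallest adjusted p was that of GRMZM5G862799, a gene without a name. It had 11.5, 8.60, 8.17 and 9.14 CPM with *O. pratensis* and 5.28, 7.16, 5.93 and 6.15 CPM with *T. urticae*, and the groups did not overlap. The difference was 0.70 (SE 0.17, edgeR adjusted p = 0.0126), under the fold change limit as well. With the replicate block it was 0.70 (SE 0.16, edgeR adjusted p = 0.00859), short of the fold change limit alone. GRMZM2G062045 differed in the other direction at 24 h, by -0.45 (SE 0.13, edgeR adjusted p = 0.0415), with 12.8 ± 2.17 CPM with *T. urticae* and 8.76 ± 1.29 CPM with *O. pratensis*. With the replicate block its difference was -0.45 (SE 0.10, edgeR adjusted p = 0.0097), also short of the fold change limit alone.

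The jasmonate pathway was represented by the TIFY genes, which included 0 of the 66 genes. With 66 genes among 22339 tested, no member is to be expected in a list of this size. Of 21 tested TIFY genes, 17 were called higher and 0 lower at 2 h of wounding, with a median log2 fold change of 3.78. They were also called higher with mites, 15 of 21 at 2 h of *O. pratensis* and 11 at 2 h of *T. urticae*, 11 at 24 h with each species, and 2 at 24 h of wounding, with 0 called lower in any treatment. Of 17 tested WRKY factors, which bind the W box of defense gene promoters, 9 were called higher and 1 lower at 2 h of wounding, and 10 higher and 0 lower at 24 h of *T. urticae*. They too included 0 of the 66 genes. Of 46 tested MYB factors, 11 were called higher and 8 lower at 2 h of wounding, with a median log2 fold change of 0.13. Of 25 tested bZIP factors, 5 were called higher and 4 lower, with a median of -0.22. Each of these lists also included 0 of the 66 genes. Of 8 tested PYL genes, which encode abscisic acid receptors, 1 was called higher and 5 lower at 2 h of wounding, with a median log2 fold change of -1.63. A list meant for AP2/ERF and DREB factors held 6 tested genes, of which 1 was called higher and 1 lower. Its letters also matched genes of other families such as VAP27, and the EREB names were used in its place, a choice made after the names were seen. Over all tested genes, 17% were called higher and 8.47% lower at 2 h of wounding, and 7.8% higher at 24 h of wounding. With *O. pratensis* 5.25% were called higher at 2 h and 12.3% at 24 h. With *T. urticae* the shares were 2.47% at 2 h and 15% at 24 h, with 4.09% lower at 24 h. These counts describe the lists, and no test of a list was made.

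Families of the named genes were looked up after the names were seen. Beside their counts, 17% of all tested genes were called higher and 8.47% lower at 2 h of wounding. At 24 h of wounding the shares were 7.8% and 0.81%. At 2 h of *O. pratensis* and *T. urticae*, 5.25% and 2.47% were called higher. Of 25 tested EREB factors, 14 were called higher and 1 lower at 2 h of wounding, 3 higher and 0 lower at 24 h of wounding, and 5 and 2 higher at 2 h of *O. pratensis* and *T. urticae*, with EREB36 the single one among the 66. EREB139 and EREB71 were close to the limits, with D of 3.15 and 2.90 at 2 h of wounding and 0.63 and 0.72 at 2 h of *O. pratensis*. EREB56 had the highest D of the family, 4.08, with 1.00 at 2 h of *O. pratensis*. Of 20 tested protein phosphatases 2C, 13 were called higher and 1 lower at 2 h of wounding, and 1 higher and 0 lower at 2 h of either mite. PP2C28 (D of 2.11) and PP2C7 (2.42) reached the limit at 2 h of wounding but had D of 1.83 and 1.10 at 24 h of *T. urticae*, and PP2C20 (2.00) had 0.67 at 2 h of *O. pratensis*. PP2C4 stayed below 0.5 elsewhere and had D of 1.72 at 2 h of wounding.

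Of 29 tested bHLH factors, 8 were called higher and 5 lower at 2 h of wounding, beside 17% and 8.47% of all tested genes. bHLH150 differed from the bHLH factor of highest D, bHLH116, which had D of 6.45 at 2 h of wounding, 6.15 at 2 h of *O. pratensis* and 0.01 at 24 h of wounding. Of 13 tested sbp factors, 2 were called higher and 4 lower, and sbp18 had D of 1.45 at 2 h of wounding and 1.01 at 2 h of *O. pratensis*. Of 8 tested cytochrome P450 genes with a CYP name, 4 were called higher and 1 lower, and of 3 kch potassium channels, 2 higher and 0 lower. ACS6 was the single tested gene with the name of an ACC synthase.

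Members near the limits are given as a description. GRMZM2G165961 (D of 2.00 at 2 h of wounding) and GRMZM2G168920 (2.02) lay just inside, and GRMZM2G032447 (1.98) and AF546187.1_FG011 (1.97) just outside. The last shares the sequence prefix of its ID with AF546187.1_FG012, which was taken with D of 2.40. In the other treatments GRMZM2G159500 (0.49 at 24 h of *T. urticae*) and GRMZM2G315431 (0.49 at 24 h of wounding) lay just inside, and GRMZM2G117836 (0.50 at 24 h of *T. urticae*) and GRMZM2G104176 (0.50 at 2 h of *O. pratensis*) just outside. GRMZM2G104176 was at 2.33 CPM in control and 28.7 CPM at 2 h of wounding.

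Of the 66 identifiers, 2 are paired with a name that a further identifier shares, so each may be part of a split gene model. GRMZM5G873286 shares LOC100272262 with GRMZM2G352883, which was at 34.3 CPM in control and 120 CPM at 2 h of wounding and had D of 1.78. GRMZM5G889372 shares LOC100383513 with GRMZM2G384972, which was at 0.554 and 0.807 CPM, a D of 0.22. Of the 66 identifiers, 41 were paired with 1 name and 25 with none. The 41 lay on all 10 chromosomes, and 0 of their 31 adjacent tested genes was a further member. Of these neighbours 7 (22.6%) were called higher at 2 h of wounding, beside 17% of all tested genes.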

How the data were processed

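Libraries were strand specific, from poly(A) RNA, with paired reads. The authors aligned reads to the AGPv3 maize genome with STAR 2.5.2b, counted reads aligned uniquely to each gene with HTSeq 0.6.0, and deposited raw counts of 39625 genes in 28 libraries. Reads of near-identical genes are lost by such counting, and they carry no molecular identifiers.

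CPM and D were computed from the deposited counts with Python 3.11.15. Tests used edgeR 4.0.16 in R 4.3.3 (filterByExpr, TMM, a quasi-likelihood fit of all 28 libraries with 1 mean per group, Benjamini-Hochberg adjustment over 22339 genes). Calls required an adjusted p no higher than 0.01 with a log2 fold change of 1 or more in either direction. DESeq2 1.42.0, RLE scaling, other pseudocounts and limits, no filter, a replicate block and leaving out each library were alternatives. Intervals are exact 95% Clopper-Pearson intervals.

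The members and lists were chosen with earlier results of these data known. By rule the text names the 12 named members of highest D, those at the limits and those of lowest D elsewhere, and others were added after their values were seen. Names come from a RefSeq table of a later assembly (NAM-5.0), matched by identifier. Gene classes were searched in its symbols, since it holds no descriptions, and its gene order gave the chromosomes and neighbours. Promoter and protein sequences were not analysed here.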

Additional observations from a re-analysis of the deposited data

Results flagged for a closer look

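In 2 of 54 sets of 4 leaves tested for a far value (Dixon's ratio above its 95% critical value), 1 leaf stood apart, and chance gives about 1 in 20. Both were leaf 2 at 2 h of wounding, with 23.5 CPM for bHLH150 (GRMZM2G045431) against 15.5 to 16.8 CPM in the other leaves, and 8.09 CPM for GRMZM2G090652 against 5.23 to 5.66 CPM.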

How the results depend on the processing

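The number of genes taken depended on the limits and on the scaling. The limits took 92 genes with TMM scaling and 100 with RLE scaling, and each included the 66. A limit of 0.25 in the other treatments took 16 genes and a limit of 1 took 244, while a limit of 1 at 2 h of wounding took 378 and a limit of 3 took 11. A pseudocount of 0.25 took 54 genes, of which 35 were among the 66, and a pseudocount of 4 took 60, of which 23 were. Medians of leaves took 61. Leaving out each library in turn took 53 to 71 genes, and 40 of the 66 were taken in all 28 cases.

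All 66 genes were called higher at 2 h of wounding under every alternative run, which the limit on D in the same comparison all but fixes. The number called higher in another treatment, whose alternatives were chosen after seeing the data, was 17 with the threshold on the adjusted p raised to 0.05, and 7 to 11 when each library was left out. Between the mite species at 2 h, 1 gene, ACS6, was called with the replicate block and 1 when the adjusted p could reach 0.05, while at 24 h 0 were called under every alternative. Plants stood in randomized blocks, and whether a replicate number marks a block is not given in the sources used here. Correlations of same-numbered deviations were between -0.16 and 0.29 and not all above 0.1, so the numbers were not taken as pairs. The block changed no other count of the members. Of 363 values of D at 2 h of wounding for 33 named members, 54 moved by at least 1 SD, of which 23 with a pseudocount of 0.25 and 30 with 4, and 0 turned in sign. At these depths a level under 3 reads over 4 libraries was not measured.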
